A study of Mus musculus with 8 samples.

Results

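The natriuretic peptide system of the embryonic ventricle was examined through 8 genes: the peptides *Nppa*, *Nppb* and *Nppc*, the receptors *Npr1*, *Npr2* and *Npr3*, and the proteases *Corin* and *Furin*. They were matched by symbol to the Ensembl identifiers of the count table, and all 8 were found among its 53465 genes. Poly(A) RNA of heart ventricles was sequenced from embryonic day 15.5 mice, in 4 *Nrg1GOF* and 4 WT libraries. The labels write the mutant genotype as Rosa26Nrg-1;Nkx5.5-Cre and the study as R26Nrg1GOF; Nkx2.5Cre. A neuregulin-1 (*Nrg1*) transgene at Rosa26 is switched on by Cre recombinase in descendants of *Nkx2.5*-expressing cardiac progenitors, which give rise to myocardium and also to other cells of the heart. The WT embryos carry the label WT only, and whether they carried Cre or the silent transgene is not stated, so the effects of *Nrg1* overexpression and of the alleles themselves cannot be told apart. Strain background, sex and litter are not given for these embryos in the sources used here.

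Natriuretic peptides are made as prohormones that proteases cut to the active form. *Nppa* encodes atrial natriuretic peptide (ANP), a classical marker of atrial and of trabecular ventricular myocardium in the embryo. *Nppb* encodes B-type natriuretic peptide (BNP) and *Nppc* C-type natriuretic peptide (CNP). Corin, a membrane serine protease of cardiomyocytes, cuts pro-ANP, while furin, a protease of the secretory pathway, cuts pro-BNP and pro-CNP. ANP and BNP act on the receptor guanylyl cyclase encoded by *Npr1* and CNP on that encoded by *Npr2*, both of which make cyclic GMP. The receptor encoded by *Npr3* has no cyclase domain, removes peptides from the circulation, and in the heart is known from the endocardium.

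Library totals ranged from 8038641 to 26786039 counts, and *Nrg1GOF* library 4 was the shallowest. Levels are CPM, counts per 1000000 of the total over tested genes after scaling by trimmed mean of M-values (TMM). *Nrg1* was at 59.7 to 63.7 CPM in *Nrg1GOF* and 3.07 to 4.47 CPM in WT, without overlap, as the labels require. Over all tested genes, WT libraries 1 and 2 (root mean square difference 0.40 in log2 CPM) and 3 and 4 (0.35) were closer to each other than across these pairs (0.51 to 0.52), and values against each pair alone are given beside the members and lists whose results they changed most. The ventricular cardiomyocyte markers *Myl2*, *Myl3*, *Myh7*, *Irx4*, *Tnnt2*, *Actc1* and *Tnni3* summed to 39764 to 42206 CPM in WT and 30121 to 38070 CPM in *Nrg1GOF*. Of the 7, 5 were called lower in the mutant, where 12.8% of all tested genes were. In RNA from whole tissue, fewer cells of a type and less RNA per cell cannot be told apart.

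*Nppa* and *Nppb* lie side by side on chromosome 4 with starts 14.9 kb apart on the same strand, and both were several times higher in *Nrg1GOF*. Because they moved together, the 250 bases before their RefSeq starts are shown (GRCm38.p6, plus strand, chr4:148000472-148000721 for *Nppa* and chr4:147985650-147985899 for *Nppb*). The start of *Nppb* in the GENCODE annotation lies within that window. Capitals mark matches, on either strand, to the letters of 5 elements. The T-box element was TCACACCT. The NK element, bound by factors such as *Nkx2-5*, was TNAAGTG. The GATA element was GATAA. The MCAT element was CATTCC and the TATA element TATAAA. The CArG box, CCWWWWWWGG with W for A or T, and the AP-1 element, TGANTCA, were also searched.
Nppa: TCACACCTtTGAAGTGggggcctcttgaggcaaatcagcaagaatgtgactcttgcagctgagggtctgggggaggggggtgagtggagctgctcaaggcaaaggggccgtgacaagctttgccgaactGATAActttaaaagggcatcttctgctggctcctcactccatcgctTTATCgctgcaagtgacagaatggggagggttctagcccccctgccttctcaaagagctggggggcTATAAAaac
Nppb: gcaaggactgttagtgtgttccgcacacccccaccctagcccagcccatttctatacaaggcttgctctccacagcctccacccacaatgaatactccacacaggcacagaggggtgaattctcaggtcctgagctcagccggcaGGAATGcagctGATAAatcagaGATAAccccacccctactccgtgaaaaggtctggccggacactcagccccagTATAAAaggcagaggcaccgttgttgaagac

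The *Nppa* window opens with a T-box element from base -250 to base -243, followed by an NK element from -241 to -235, counted from the start. It also holds GATAA at -121 to -117 and its reverse complement at -75 to -71, with TATAAA at -9 to -4. The *Nppb* window holds an MCAT element at -105 to -100 and GATAA at -94 to -90 and at -83 to -79, with TATAAA at -31 to -26. None of these matches overlapped another. Among 32851 RefSeq promoter windows of this length, 1.12% held the T-box letters, 10.1% the NK letters, 22.6% GATAA, 12.6% CATTCC and 12.4% TATAAA. Both the T-box and the NK letters were present in 45 windows (0.137%), and 2 or more GATAA matches with TATAAA in 308 (0.938%). The combinations counted are ones that the *Nppa* window or both shown windows hold, so these shares are not a test of them. No exact match to the CArG or AP-1 letters, present in 1.47% and 6.75% of windows, was found in either window. Near matches were not counted, and the *Nppa* window holds ctttaaaagg, which has T in place of a C of the CArG letters. All 8 members had a window in the table. Outside *Nppa* and *Nppb*, matches were limited to TATAAA in *Nppc* and an NK element and TATAAA in 1 of 2 windows of *Furin*. A match describes letters and not binding.

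*Nppa* (ENSMUSG00000041616, GRCm38 chromosome 4, 148000722 to 148002079, plus strand) was at 877, 835, 876 and 771 CPM in WT libraries 1 to 4. In *Nrg1GOF* libraries 1 to 4 it was at 4885, 5187, 3142 and 5523 CPM. The groups were far apart, and *Nrg1GOF* library 3 was the lowest mutant. From a WT mean of 840.1 ± 49.7 the level reached 4684 ± 1061 CPM in the mutant (SD, n = 4 each). The rise was 5.58-fold, or 2.48 on the log2 scale (SE 0.16), with an adjusted p of 9.92e-06 in edgeR's quasi-likelihood test. The transcript took up 0.0765% to 0.0869% of all counts in WT and 0.326% to 0.550% in *Nrg1GOF*. Its gain of 3844 CPM was the largest of 21865 protein-coding genes, ahead of the imprinted gene *Mest*, which gained 2619 CPM. Per kilobase of exon it moved from rank 20 to rank 3 among these genes.

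*Nppb* (ENSMUSG00000029019, chromosome 4, 147985788 to 147987205, plus strand) was at 65.0, 65.4, 74.9 and 80.4 CPM in WT libraries 1 to 4. In *Nrg1GOF* libraries 1 to 4 it was at 327, 349, 270.3 and 417 CPM. As for *Nppa*, mutant library 3 was the lowest and library 4 the highest, and the groups did not overlap. *Nppb* rose 4.76-fold from 71.4 ± 7.53 in WT to 341 ± 60.8 CPM in the mutant (SD, n = 4 each), or by 2.25 on the log2 scale (SE 0.13, edgeR quasi-likelihood adjusted p = 5.88e-06). The intervals of the *Nppb* and *Nppa* rises overlapped, the 95% bounds being 1.96 to 2.54 and 2.13 to 2.83 on the log2 scale. The ratio of *Nppa* to *Nppb* per kilobase was 8.66 to 12.2 in WT and 10.5 to 13.5 in *Nrg1GOF*, and these ranges overlapped. By log2 fold change *Nppa* ranked 37 and *Nppb* 49 of the 15580 genes tested.

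*Nppc* (ENSMUSG00000026241, chromosome 1, 86666291 to 86670571, minus strand) was barely detected and was removed by the filter on low counts. It had 3, 7, 0 and 1 counts in WT libraries 1 to 4 and 4, 15, 16 and 2 counts in *Nrg1GOF* libraries 1 to 4. The highest values came from mutant libraries 2 and 3, and the groups overlapped. In the fit without this filter its unadjusted p was 0.0322 and its adjusted p 0.152 (edgeR quasi-likelihood). *Nppc* also passed the filter in fits with a smaller WT group. It was called higher in *Nrg1GOF* against WT libraries 3 and 4 alone (edgeR adjusted p = 0.0228), which hold 0 and 1 counts, but not against WT libraries 1 and 2 alone (adjusted p = 0.396) or with each WT pair summed (adjusted p = 0.184). At these counts no fold is given, and the result for CNP transcripts depended on which WT libraries were used.

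**Figure D1:**
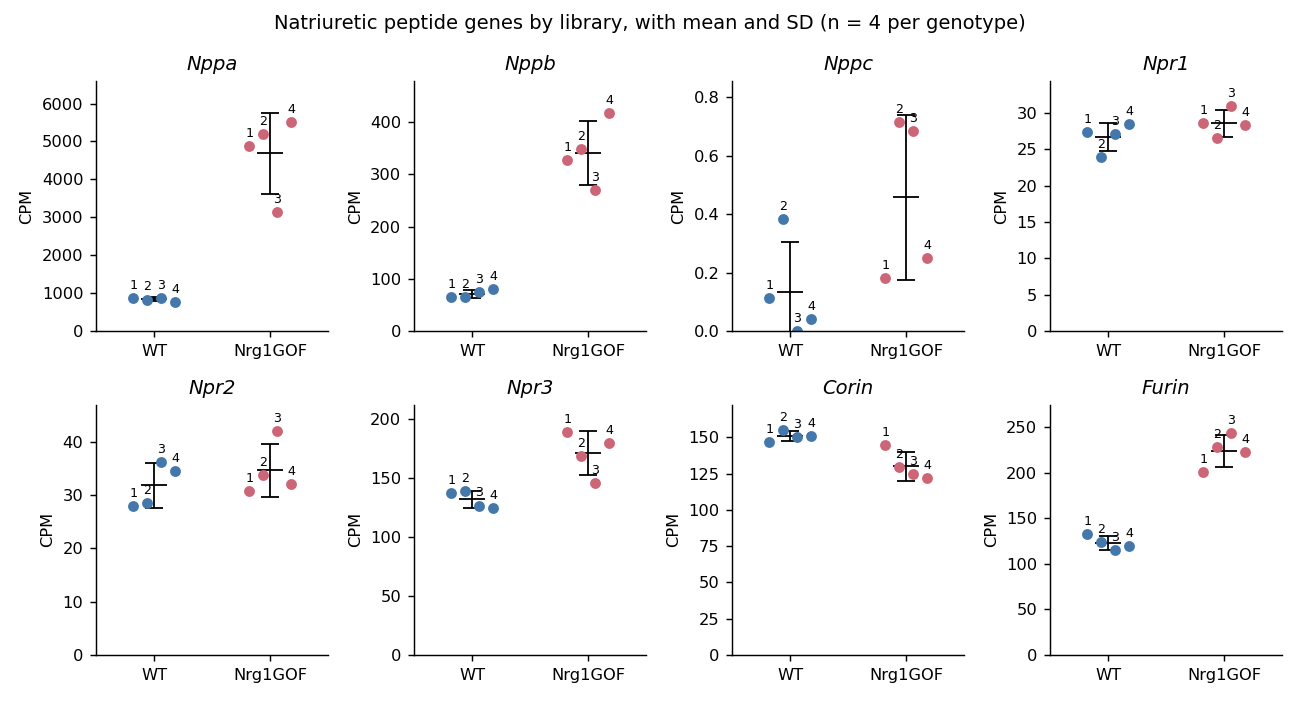
Level in CPM (vertical axes, each from 0) of each of the 8 genes in each library, with replicate numbers beside the points and bars for the mean ± SD of 4 libraries (the lower bar of *Nppc* in WT is cut at 0). *Nppa* and *Nppb* separate the genotypes widely, *Furin* and *Npr3* by less, *Corin* is slightly lower in *Nrg1GOF*, and *Npr1* and *Npr2* overlap.

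The cyclase receptors did not pass the test. *Npr1* (ENSMUSG00000027931, chromosome 3, 90450591 to 90465866, minus strand) was at 27.3, 23.9, 27.1 and 28.4 CPM in WT libraries 1 to 4. It was at 28.5, 26.5, 30.9 and 28.3 CPM in *Nrg1GOF* libraries 1 to 4. The groups overlapped, and the log2 fold change was 0.095 with a 95% interval of -0.068 to 0.26 (edgeR quasi-likelihood adjusted p = 0.373). *Npr2* (ENSMUSG00000028469, chromosome 4, 43631935 to 43651244, plus strand) was at 28.0, 28.6, 36.2 and 34.6 CPM in WT libraries 1 to 4. In *Nrg1GOF* libraries 1 to 4 it was at 30.9, 33.8, 42.0 and 32.1 CPM. WT libraries 3 and 4 lay above WT libraries 1 and 2 and above 3 of the 4 mutant libraries. The log2 fold change of *Npr2* was 0.13 with a 95% interval of -0.14 to 0.39 (edgeR quasi-likelihood adjusted p = 0.466), and it was 0.30 against WT libraries 1 and 2 alone and -0.015 against WT libraries 3 and 4 alone. Changes of 1.5-fold in either receptor lie outside these intervals.

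*Npr3* (ENSMUSG00000022206, chromosome 15, 11839896 to 11907287, minus strand) was the most abundant receptor and the one that rose. It was at 137, 139, 126 and 125 CPM in WT libraries 1 to 4 and at 189, 169, 146 and 179.6 CPM in *Nrg1GOF* libraries 1 to 4. The groups did not overlap, but mutant library 3 lay close to WT libraries 1 and 2. *Npr3* rose 1.29-fold, or by 0.37 on the log2 scale (SE 0.082), with an adjusted p of 0.00753 by edgeR. The call was lost against WT libraries 1 and 2 alone (log2 fold change 0.30, adjusted p = 0.0687) and kept against WT libraries 3 and 4 alone (0.45, adjusted p = 0.0121). It was also lost when each WT pair was summed to 1 sample (0.38, adjusted p = 0.0540) and with the atrial marker covariate described below (0.39, adjusted p = 0.0906).

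Of 8 markers of endothelium and endocardium, 5 rose and none fell, where 15.9% of all tested genes rose, and their sum was 1088 to 1124 CPM in WT and 1233 to 1315 CPM in *Nrg1GOF*. Those that rose were *Nfatc1*, an endocardial transcription factor (log2 fold change 1.21), *Plvap* (0.80), *Emcn* (0.67), *Tek* (0.45) and *Tie1* (0.28). The remaining markers *Pecam1*, *Cdh5* and *Kdr* had values of 0.079, -0.036 and -0.040 and did not pass the test. Within the mutant group the library with the lowest *Npr3*, library 3, also had the lowest sum of these markers, but *Npr3* was highest in library 1 and the sum in library 4. In WT, library 2 had the lowest sum and the highest *Npr3*. The part of these cells in the *Npr3* result cannot be told apart from the genotype, because the sums of the genotypes do not overlap.

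*Furin* (ENSMUSG00000030530, chromosome 7, 80388585 to 80405436, minus strand) also rose. It was at 133, 124, 116 and 119 CPM in WT libraries 1 to 4 and at 201, 228, 243 and 222 CPM in *Nrg1GOF* libraries 1 to 4. The highest WT library was well below the lowest mutant library. *Furin* rose 1.82-fold, or by 0.86 on the log2 scale (SE 0.070), with an adjusted p of 3.94e-05 by edgeR. Its mean was 123 ± 7.48 in WT and 224 ± 17.5 CPM in the mutant (SD, n = 4 each). *Furin* is made by most cell types. Markers of epicardium and fibroblasts summed to 2011 to 2622 CPM in WT and 3545 to 4710 CPM in *Nrg1GOF*. Of these 8 markers 7 were higher and *Tbx18* was lower, where 15.9% of all tested genes were higher and 12.8% lower. The part of these cells in the *Furin* result was not tested.

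*Corin* (ENSMUSG00000005220, chromosome 5, 72300025 to 72504473, minus strand) was the member that fell, and by little. It was at 147, 155, 150.2 and 151 CPM in WT libraries 1 to 4 and at 144, 129.5, 125 and 122 CPM in *Nrg1GOF* libraries 1 to 4. The groups did not overlap, although mutant library 1 came within 3 CPM of WT library 1. *Corin* fell by 0.21 on the log2 scale (SE 0.060, edgeR quasi-likelihood adjusted p = 0.0264), to 0.864 of the WT level. The call was lost without any 1 of *Nrg1GOF* libraries 2, 3 and 4 or WT libraries 2, 3 and 4 (adjusted p up to 0.0744), with scaling by the library total alone (adjusted p = 0.0566) and against either WT pair alone. The direction was the same in all of these. *Corin* is a cardiomyocyte gene, and 5 of the 7 ventricular cardiomyocyte markers fell too, where 12.8% of all tested genes fell. *Myh7* fell by 0.48, *Tnni3* by 0.37 and *Tnnt2* by 0.32 on the log2 scale, and *Irx4* (-0.44) and *Myl3* (-0.31) were also lower. The call of *Myl3* was marginal (edgeR adjusted p = 0.0499), and the groups of *Tnnt2* overlapped. The markers *Myl2* (-0.24, adjusted p = 0.0815) and *Actc1* (0.0012, adjusted p = 0.992) did not pass the edgeR test. Their part in the *Corin* result was not tested.

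In all, 5 of the 7 members tested had an adjusted p under 0.05, 4 higher and 1 lower, where 28.7% of all 15580 tested genes did (15.9% higher and 12.8% lower). The count was 3, all higher, with each WT pair summed to 1 sample (2464 of 16150 genes called), against WT libraries 1 and 2 alone (2999 of 16086) and with an atrial marker covariate (1488 of 15580). The call of *Corin* was lost in 14 of the 24 alternatives. In the 5 called members the groups did not overlap, against 30.7% of all tested genes. *Nppa* and *Nppb* were 2 of the 68 called genes (0.436% of those tested) with a log2 fold change of at least 2. The median log2 fold change of all tested genes was -0.012. The members, like the lists below, were chosen with earlier results of these data known, so their share called is not independent evidence.

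**Figure D2:**
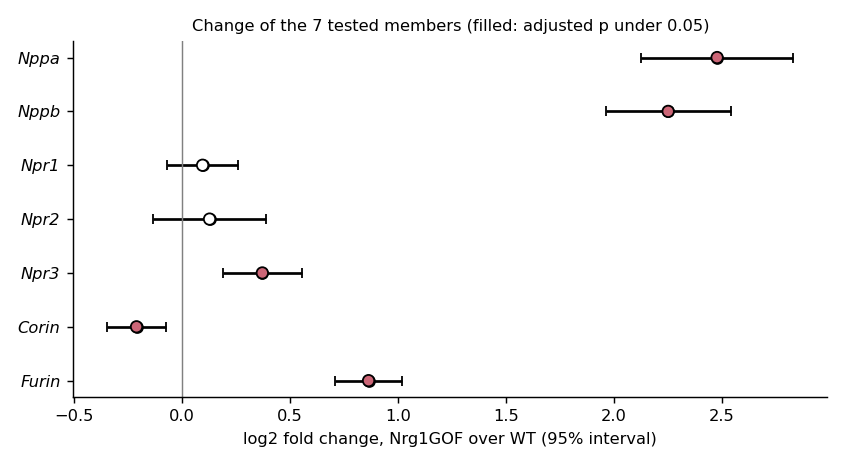
Log2 fold change of *Nrg1GOF* over WT (horizontal axis) with its 95% interval for the 7 tested genes, filled where the adjusted p was under 0.05. *Nppa* (2.48) and *Nppb* (2.25) stand well to the right, *Furin* (0.86) and *Npr3* (0.37) are smaller rises, *Corin* (-0.21) is a small fall, and the intervals of *Npr1* and *Npr2* span 0.

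Levels of different genes were compared per kilobase of the union of their exons. In WT the order was *Nppa* (971 CPM per kb), *Nppb* (91.5), *Corin* (27.9), *Npr3* (14.04), *Furin* (13.4), *Npr2* (6.82), *Npr1* (5.58) and *Nppc* (0.129). *Npr3* at 13.3 to 14.8 and *Furin* at 12.6 to 14.5 CPM per kb overlapped, and their order turned when the longest transcript was used as the length (19.1 and 21.4). In *Nrg1GOF* the level was 5415 CPM per kb for *Nppa* and 436 for *Nppb*. *Furin* at 24.4 and *Corin* at 24.1 CPM per kb overlapped there, but with the longest transcript as the length *Furin* (39.0, from 35.1 to 42.4) lay above *Corin* (26.8, from 25.1 to 29.7). The ratio of *Furin* to *Corin* per kilobase was 0.532, 0.470, 0.453 and 0.466 in WT libraries 1 to 4. It was 0.820, 1.04, 1.15 and 1.07 in *Nrg1GOF* libraries 1 to 4, all above the WT values. The ratio of *Npr3* to *Npr1* overlapped, at 2.23 to 2.96 in WT and 2.40 to 3.37 in *Nrg1GOF*.

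**Figure D3:**
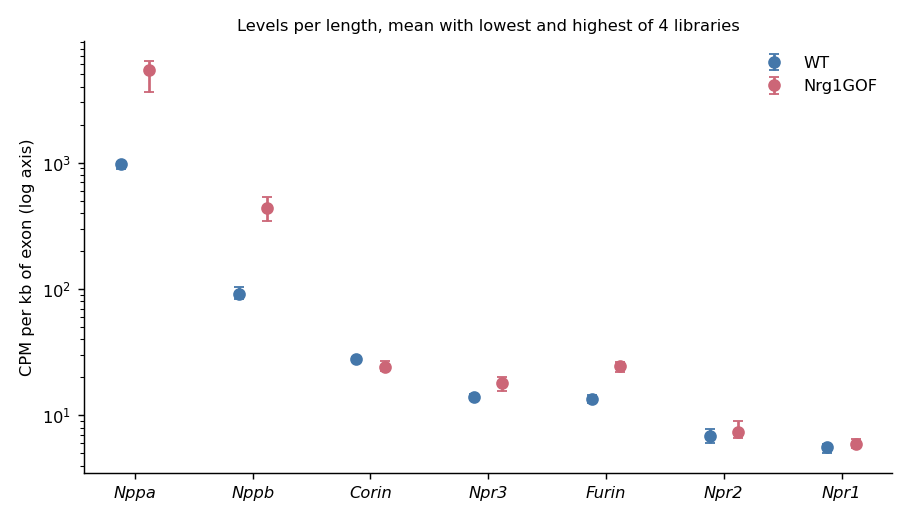
Level in CPM per kilobase of exon (vertical log axis) of 7 members, *Nppc* left out, as the mean with the lowest and highest of 4 libraries for WT and *Nrg1GOF*. *Nppa* and *Nppb* lead in both genotypes, and *Furin* is near *Npr3* in WT and near *Corin* in *Nrg1GOF* on this length, while on the longest transcript it lies above *Corin* in *Nrg1GOF* (39.0 against 26.8).

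Atrial tissue is rich in *Nppa*, so atrial markers were examined beside it. Of the 6 markers *Sln*, *Myl7*, *Myl4*, *Nr2f1*, *Nr2f2* and *Kcnj3*, 3 rose and none fell, where 15.9% of all tested genes rose, and their sum was 1005 to 1121 CPM in WT and 1605 to 1771 CPM in *Nrg1GOF*. The sum was mostly *Myl4*, which is also present in embryonic ventricle, at 862 ± 25.98 CPM in WT against 1312 ± 142 in the mutant (SD, n = 4 each). None of the 6 was absent. *Myl4* was at 885, 839.95, 884 and 839.3 CPM in WT libraries 1 to 4 and at 1220.2, 1344, 1186 and 1500.1 CPM in *Nrg1GOF* libraries 1 to 4. Like *Nppa*, it was highest in mutant library 4 and lowest in library 3, and the marker sum was also highest in library 4. *Sln* was at 4.89, 3.98, 0.162 and 1.48 CPM in WT libraries 1 to 4 and at 10.2, 11.2, 14.2 and 1.88 CPM in *Nrg1GOF* libraries 1 to 4. *Myl7* was at 176, 156, 88.9 and 106 CPM in WT and at 310.1, 341, 377 and 212 CPM in *Nrg1GOF*, in the same order of libraries. Both were highest in mutant library 3 and lowest in library 4, the reverse of *Myl4*. The covariate was the mean of the 6 markers in log2 CPM, each centred on its own mean, which weighs all markers equally. It was lowest among the mutants in library 4 (-0.118), where *Nppa*, *Myl4* and the marker sum were highest. With this covariate the log2 fold change of *Nppa* was 2.69 (edgeR quasi-likelihood adjusted p = 0.000263) and *Nppa*, *Nppb* and *Furin* were called. Because the covariate and the sum differ in order, this fit cannot decide the part of atrial tissue in the *Nppa* result, which was not tested.

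**Figure D4:**
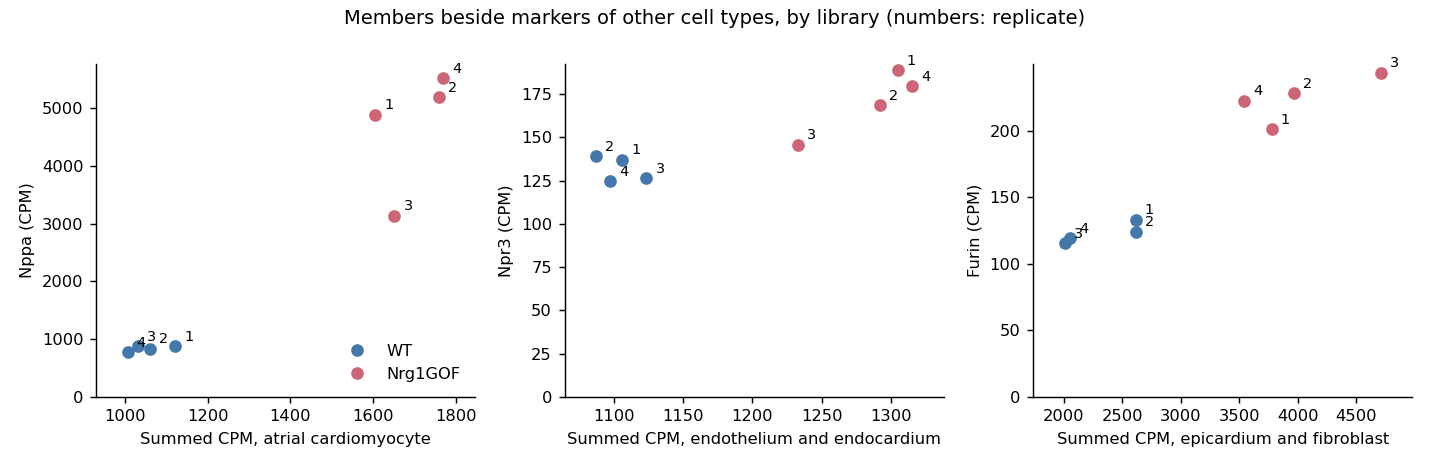
CPM of *Nppa*, *Npr3* and *Furin* (vertical axes, from 0) against the summed CPM of atrial, endothelial and endocardial, and epicardial and fibroblast markers, 1 point per library with its replicate number. In each panel the genotypes are separate on both axes, and *Nrg1GOF* library 3 is lowest for *Nppa* and *Npr3* but highest for *Furin*.

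The genes around the peptide locus were then compared, taking every annotated gene within 200 kb on either side of the *Nppa* start. Apart from the members there were 21, of which 14 were tested and 5 were called, 2 higher and 3 lower, where 28.7% of all tested genes were called. *Gm13054* (chromosome 4, 148001091 to 148004014, minus strand), an antisense transcript that overlaps *Nppa*, rose by 2.50 on the log2 scale (SE 0.57, edgeR adjusted p = 0.00936). It ranged from 0.860 to 5.07 CPM in WT and from 4.38 to 19.6 CPM in *Nrg1GOF*, so that the groups overlapped. These levels averaged 0.253% and 0.241% of those of *Nppa*. The library kit keeps strand, but the sources used here do not say how strand was handled in counting, so reads of the overlap cannot be assigned with certainty. The next gene beyond it, *Clcn6*, averaged 36.3 ± 4.40 in WT and 30.6 ± 2.30 CPM in the mutant (SD, n = 4 each) and did not pass the edgeR test (log2 fold change -0.25, adjusted p = 0.0743). Farther out, *Plod1*, a collagen lysyl hydroxylase, rose by 0.53, and *Mfn2*, a mitochondrial fusion gene, *Fv1* and *Fbxo44* had log2 fold changes of -0.30, -0.44 and -0.92. The remaining 8 tested genes had values between -0.69 and 0.20 and did not pass.

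**Figure D5:**
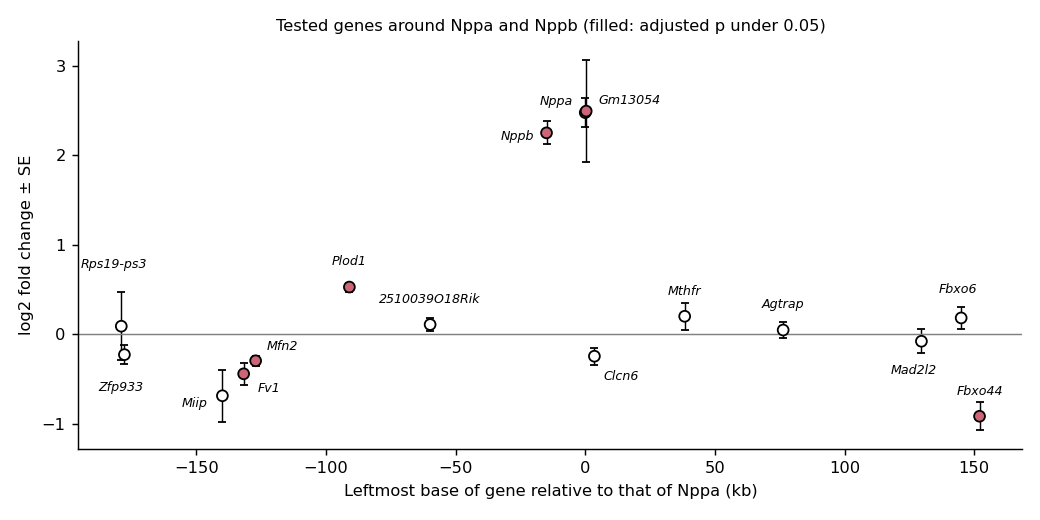
Log2 fold change ± SE (vertical axis) of the 16 tested genes within 200 kb of *Nppa*, by distance in kb of their leftmost base from that of *Nppa* (horizontal axis), filled where the adjusted p was under 0.05. *Nppa*, *Nppb* and *Gm13054* lie above 2 and the other genes between -0.92 and 0.53.

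Genes whose profile over the 8 libraries was most like that of *Nppa* were ranked by the root mean square difference of log2 CPM, each gene centred on its own mean. This distance largely follows the size of the genotype difference, so a near gene need not follow *Nppa* from library to library. The 5 nearest genes other than members were *Ache*, acetylcholinesterase (0.22), *Thbs4*, a thrombospondin (0.28), *Clu*, clusterin (0.30), *Gdf15*, a secreted stress-response cytokine (0.31), and *Etv4*, an ETS transcription factor (0.32). *Nppb* was nearer than any of them, at 0.20. For *Nppb* the 5 nearest other than members were *Ache* (0.18), *Clu* (0.21), *Etv4* (0.22), *Thbs4* (0.24) and *Hmox1*, heme oxygenase (0.27), and *Nppa* at 0.20 came after *Ache* and before *Clu*. *Ache* averaged 6.99 ± 1.03 in WT and 35.9 ± 3.12 CPM in the mutant (SD, n = 4 each), a rise of 2.35 on the log2 scale (SE 0.11). Among the mutants, *Thbs4*, *Clu* and *Gdf15* were lowest in library 3, like *Nppa*. *Ache* was lowest in library 1, and *Etv4* was highest in library 3.

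Downstream of the receptors, 18 genes of cyclic GMP signalling were listed and 16 were tested. Of these, 4 rose and 2 fell, or 37.5% called against 28.7% of all tested genes, with a median log2 fold change of 0.16 against -0.012. This median was 0.083 without *Nrg1GOF* library 2 and 0.085 without WT library 4, and it turned to -0.040 with the atrial covariate described above. Against WT libraries 1 and 2 alone 4 rose and 4 fell with a median of 0.081, and against WT libraries 3 and 4 alone 6 rose and 2 fell with a median of 0.33. Of the 3 listed subunits of soluble guanylyl cyclase, which makes cyclic GMP in response to nitric oxide, *Gucy1a1* rose by 0.51 and *Gucy1b1* by 0.37, while *Gucy1a2* (0.16, adjusted p = 0.726) did not pass the edgeR test. Among the phosphodiesterases, which degrade cyclic nucleotides, *Pde1a* rose by 1.23 and *Pde9a* by 0.95, while *Pde1c* fell by 1.18. *Pde9a*, an enzyme specific for cyclic GMP, averaged 5.18 ± 0.610 in WT and 10.03 ± 0.533 CPM in the mutant (SD, n = 4 each). *Rgs2*, a target of cyclic GMP-dependent kinase, fell by 0.65. The kinase gene *Prkg1* (-0.15, adjusted p = 0.501) and *Pde5a* (0.060, adjusted p = 0.760) did not pass the edgeR quasi-likelihood test.

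Of 14 other genes of peptide processing and clearance, 10 were tested, 5 rose and 1 fell, or 60.0% called against 28.7% of all tested genes, with a median of 0.20. Against WT libraries 1 and 2 alone 3 were called with a median of 0.14, and against WT libraries 3 and 4 alone 6 with a median of 0.31. The convertases *Pcsk5* and *Pcsk6*, of which the latter activates corin, rose by 0.49 and 0.39, and the enzymes *Galnt1* and *Galnt2*, which start O-glycosylation, by 0.32 and 0.31. *Pam*, the amidating enzyme found in atrial secretory granules, rose by 0.21 from 1556 ± 86.8 CPM (SD, n = 4). *Ide*, insulin-degrading enzyme, which also cleaves natriuretic peptides, was at 284, 287, 201 and 199.7 CPM in WT libraries 1 to 4 and at 145, 139.9, 147 and 161 CPM in *Nrg1GOF* libraries 1 to 4. The WT pairs stood apart and both lay above the mutant libraries, and *Ide* fell by 0.71 on the log2 scale (edgeR quasi-likelihood adjusted p = 0.00258). *Mme*, the gene of neprilysin, did not pass the test (0.13, adjusted p = 0.524). *Ostn*, which encodes a ligand of the *Npr3* receptor, had 0 counts in all 8 libraries.

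Of 20 transcription factors known from work on *Nppa* or chamber myocardium, 6 rose and 6 fell, or 60.0% called against 28.7% of all tested genes (15.9% higher and 12.8% lower). Their median was -0.031 and its sign was not stable. It ranged from -0.051 without WT library 3 to 0.0094 without WT library 2, with -0.047 without WT library 4, -0.00087 without WT library 1, -0.0099 without *Nrg1GOF* library 1 and -0.019 without *Nrg1GOF* library 4, and it was 0.012 with scaling by the library total alone. It was -0.099 against WT libraries 1 and 2 alone, 0.076 against WT libraries 3 and 4 alone and -0.14 with the atrial covariate. The largest rises were those of *Gata5* (1.45), *Tbx3* (1.01) and *Hey1* (0.63), and the largest falls those of the compact myocardium gene *Hey2* (-1.82), *Irx4* (-0.44) and *Gata6* (-0.43). *Gata4* (-0.051, adjusted p = 0.493) and *Nkx2-5* (-0.028, adjusted p = 0.887) did not pass the test. *Tbx5*, an activator of *Nppa*, rose by 0.42. Of the 20, 7 were called against WT libraries 1 and 2 alone, 8 against WT libraries 3 and 4 alone, and 6 with each WT pair summed to 1 sample.

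Of 12 genes linked to wall stress and hypertrophy, 5 rose and 4 fell, or 75.0% called against 28.7% of all tested genes. Their median was 0.21, with 0.12 against WT libraries 1 and 2 alone and 0.26 against WT libraries 3 and 4 alone. *Xirp2* (1.61), *Ankrd1* (1.24) and *Nfatc1* (1.21) had the largest rises, the last being also an endocardial marker. *Atp2a2*, the calcium pump of the sarcoplasmic reticulum (-0.90), *Myh7* (-0.48) and *Mybpc3* (-0.40) fell most. Skeletal actin *Acta1*, often raised together with *Nppa* and *Nppb* in the stressed adult heart, had a log2 fold change of 0.084 (edgeR quasi-likelihood adjusted p = 0.613). Of 11 other ventricular wall markers that the study names, 10 rose and *Hey2* fell, with a median of 0.55. Of all tested genes, 15.9% rose and 12.8% fell. Some of the markers were named from these libraries, so this list too is not independent evidence of direction. The rises ranged from 0.25 for *Plk2* to 1.82 for *Slit2*, against 2.48 for *Nppa* and 2.25 for *Nppb*.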

How the data were processed

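RNA-seq was performed on ventricles of 4 *Nrg1GOF* and 4 WT mouse embryos at E15.5. The authors deposited expected counts per gene from RSEM (version 1.3.1, with cutadapt, per the submitters' processing notes) on GRCm38 with Ensembl release 91. Expected counts divide reads that fit several genes, are not scaled for depth or length, and were rounded here. The strand setting was not stated. Genes were filtered with filterByExpr of edgeR (4.0.16, R 4.3.3), scaled by TMM, and tested by the quasi-likelihood F-test with genotype as sole term and Benjamini-Hochberg adjustment over 15580 genes, with a threshold of 0.05. SE is the absolute log2 fold change over the square root of F. Coordinates and exon lengths came from GENCODE M21 and promoter windows from RefSeq, both GRCm38. The scripts were tested on simulated data. The level of 3 counts, the floor used, corresponds to 0.115 to 0.375 CPM, which covers counting error only. Groups and replicate numbers came from the titles. The series' design text gives 1 ventricle per replicate but no litters, so p-values measure the spread between these samples only.

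The members and lists were chosen with earlier results of these data known. Genes named are the members, up to 3 called genes per list with the highest and lowest change, neighbours within 200 kb of *Nppa*, the 5 nearest profiles (average log2 CPM of at least 1), *Nrg1* and *Nkx2-5*, with further list genes chosen after their values were seen. Lists are described by counts without a set test. Alternatives were other scalings, filters and tests (DESeq2 1.42.0, limma-voom 3.58.1), unrounded counts, a replicate block, leaving out each library, WT pairs, 2 marker covariates and a threshold of 0.01. No library was left out.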

Additional observations from a re-analysis of the deposited data

Results flagged for a closer look

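Dixon's test was applied to the highest and lowest of the 4 libraries of each genotype, taking the gap to the next value as a share of the whole spread. Of 28 groups of member levels, ratios and library totals, 2 held a value past the 95% critical limit, and chance at 1 in 20 gives 1.4. The total of *Nrg1GOF* library 4 (8038641 counts, against 20578081 to 22547833) had a gap of 0.864 of the range. The ratio of *Npr3* to *Npr1* per kilobase was 2.40 in *Nrg1GOF* library 3 against 3.24 to 3.37 in the other mutant libraries, a gap of 0.863 of the range.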

How the results depend on the processing

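Of 352 values recomputed under an alternative, 301 stayed on their side of the threshold in the same direction or, for counts and levels, near the reported value. *Nppa*, *Nppb* and *Furin* kept direction and call in 23 of 24 alternatives each. The exception was the endothelial covariate, which separates the genotypes completely (0.143 to 0.252 in *Nrg1GOF*, -0.241 to -0.182 in WT) and so takes up the contrast by construction. There no gene was called by edgeR's quasi-likelihood test (0 of 15580, 1584 at an unadjusted p under 0.05, among them 1 member), hence 0 members and 0 genes of each list, and the log2 fold changes were -0.29 for *Nppa* and -0.50 for *Npr3* (reversed), 0.37 for *Nppb*, -0.30 for *Corin* and 1.48 for *Furin*. The atrial covariate left 1488 genes and 3 members, 2 processing and 4 promoter factor genes, with *Npr3* at 0.39 and *Corin* at -0.24 (adjusted p = 0.0906 and 0.164). Summing the WT pairs left 2464 genes, 3 members and 6 promoter factors, with *Npr3* at 0.38 and *Corin* at -0.20. Against WT libraries 1 and 2 alone, 2999 of 16086 genes, 3 members, 3 processing and 7 promoter factor genes were called, with *Npr3* at 0.30 and *Corin* at -0.21. Against WT libraries 3 and 4 alone 4487 of 16209 genes and 5 of 8 members were called, all 5 higher, with *Nppc* gained (adjusted p = 0.0228), *Corin* lost (-0.20, adjusted p = 0.0906) and *Npr2* reversed to -0.015. *Corin* lost its call without a filter (-0.21, adjusted p = 0.0519), with library totals alone (-0.17) and at a threshold of 0.01 (-0.21), which left 2535 genes and 7 promoter factors. These causes were not tested.

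When single libraries were omitted in turn, *Nppa* ranged from 2.40 to 2.64, *Nppb* from 2.15 to 2.35, *Furin* from 0.83 to 0.91, *Npr3* from 0.32 to 0.45, *Corin* from -0.26 to -0.17, *Npr1* from 0.047 to 0.13 and *Npr2* from 0.024 to 0.19. Called genes ranged from 3239 to 4261, members from 4 to 5, cyclic GMP genes from 6 to 7, processing genes from 5 to 6, promoter factors from 10 to 13, wall markers from 10 to 11 and wall stress genes from 8 to 9. Using library totals alone moved the share of higher calls from 2474 of 4467 to 2874 of 4395.

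Libraries with the same replicate number correlated at 0.049 to 0.20 in their deviations from the group means, those with different numbers at -0.26 to 0.19, and 4 of 8 libraries correlated best with their own number, so the numbers were not taken to pair the samples. With the replicate block 4524 genes and 5 members were called, with *Nppa* at 2.45. With the longest transcript as length, levels of *Npr1*, *Npr2*, *Npr3*, *Corin* and *Furin* per kilobase moved by more than 1 SD. Depth limits *Nppc*, which had at most 16 counts in any library.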

Other observations

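*Nrg1GOF* library 3 was the lowest mutant library for *Nppa*, *Nppb* and *Npr3* and the highest for *Npr1*, *Npr2* and *Furin*. It also had the lowest sum of ventricular cardiomyocyte markers (30121 CPM, against 33275 to 38070 CPM in the other mutant libraries) and the highest of epicardial and fibroblast markers (4710 CPM, against 3545 to 3967 CPM). Without it the log2 fold change was 2.64 for *Nppa*, 0.45 for *Npr3* and 0.024 for *Npr2*.

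Among mural cell markers, *Pdgfrb* and *Cspg4* rose by 0.29 and 0.20 on the log2 scale, and *Acta2* and *Rgs5* fell by 0.70 and 0.59. None of 6 red blood cell genes was called by edgeR's quasi-likelihood test, and 0 had an unadjusted p under 0.05. Their sum was 12121 to 12954 CPM in WT libraries 1 and 2, 4373 to 5445 CPM in WT libraries 3 and 4, and 5374 to 8837 CPM in *Nrg1GOF*.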
